A study of Homo sapiens with 9 samples.

Results

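The comparison described here set RKO cells given native let-7a against RKO cells given a negative control oligonucleotide, with 1 array on each side out of 9 arrays in the study. RKO is a human colorectal cancer line, and every culture in the study, the control included, carried a disrupted exon 5 of DICER, the enzyme that cuts microRNA precursors to their mature length. Cells received double-stranded RNA oligonucleotides by lipofection, and total RNA was taken 48 hours later. The remaining arrays came from cells given native miR-200c, miR-21 or miR-17, or methylated forms of the same 4 microRNAs. The 2 arrays were selected by their titles alone, and the labels give neither the dose nor the sequence of any oligonucleotide.

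MicroRNAs act as guides for Argonaute proteins and pair with messenger RNAs mostly through the seed, the bases near their 5′ end. Pairing lowers the translation and the stability of the target, so that an array can register part of the effect as a lower transcript level. The let-7 family is known for restraining oncofetal and proliferation genes such as HMGA2, LIN28B and the E2F factors, and low let-7 is a common feature of epithelial tumours. The mature sequences that carry these names in RefSeq (GRCh38.p14) are shown because the seed decides which messages a guide can pair with. Capitals mark the seed, bases 2 to 8.

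hsa-let-7a-5p: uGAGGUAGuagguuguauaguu

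hsa-miR-200c-3p: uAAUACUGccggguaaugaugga

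hsa-miR-21-5p: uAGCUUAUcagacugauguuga

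hsa-miR-17-5p: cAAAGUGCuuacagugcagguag

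The 4 seeds differ from one another, so each oligonucleotide has its own set of predicted targets. A let-7a seed match in a message reads CUACCUC. Identical let-7a is encoded at chr9:94175962-94175983 on the plus strand (MIRLET7A1, within the host gene MIRLET7A1HG), at chr11:122146568-122146589 on the minus strand (MIRLET7A2, within MIR100HG) and at chr22:46112752-46112773 on the plus strand (MIRLET7A3, within MIRLET7BHG). The arm and strand of the transfected duplex are not given in the labels. The arrays measure messenger RNA and hold no value for let-7a itself.

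Values below are log2 intensities after background correction and quantile normalisation, and each difference is the let-7a native array minus the negative control array. An offset of 50 intensity units was added before the log, which makes the differences of dim probes smaller than the true change. A feature is a gene, or a probe with no single gene symbol, and 16072 features passed the detection filter. With 1 array a side there is no replicate, so the differences have no error and no p-value, and 2-fold (1 on the log2 scale) is used only as a limit of size. The 3 other native arrays were used to show which differences also appeared with an unrelated guide. All 4 native arrays are set against the same control array, so a high or low reading of that 1 array enters every difference alike.

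Between 69.4% and 78.2% of probes were detected per array. DICER1, the targeted gene, read between 6.25 and 6.74 on the 9 arrays; the probe's place relative to exon 5 is not given, so the reading checks nothing about the disruption. Of 13 colon epithelial and RKO markers 9 were measured, with a median difference of 0.04 after let-7a native. KRT19, CEACAM5 and MUC2, with 1 probe each, did not pass the detection filter. Of those measured, KRT18, an epithelial keratin, was at 11.04 in the control and 11.02 after let-7a native, and CDH1 was at 7.77 and 7.79. Of 18 blood and immune markers 8 were measured, with a summed intensity of 8183 to 11490 over the 9 arrays, mostly from the lysosomal protein CD68 at 12.86 to 13.38, and the T cell markers CD3D and CD3E were near the detection limit at 5.93 and 5.94 in the control. Of 14 fibroblast and endothelial markers 6 were measured, at a summed intensity of 667 to 729.

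Position on the array moved with part of the difference. In blocks 1 and 2, columns 3 to 6 and rows 6 to 10 held 27 kept probes, whose median difference was -0.46 after let-7a native, with 11 of the 27 lower by at least 2-fold. The same spots had a median of -0.95 on the miR-17 native array, -0.21 on the miR-21 methylated array and -0.13 on the miR-21 native array, whereas the medians of the other 4 miRNA arrays lay between -0.01 and 0.09. A milder depression covered rows 1 to 3, columns 62 to 78 of block 24, where 40 probes had a median of -0.36 after let-7a native, beside -0.23 on miR-200c native, -0.16 on miR-21 methylated and -0.13 on miR-17 methylated. A further small area, columns 51 to 54 and rows 2 to 5 of block 3, held 13 kept probes with a median of -0.31. The 6 of them with a control level of at least 7 were all below the control after let-7a native, with a median of -0.78, against medians of -0.19 to 0.24 on the other 7 miRNA arrays. The bounds of these areas were drawn after the differences were seen. The part that position played in single genes was not tested, and the values of neighbouring spots are given below for many of the affected genes.

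**Figure D1:**
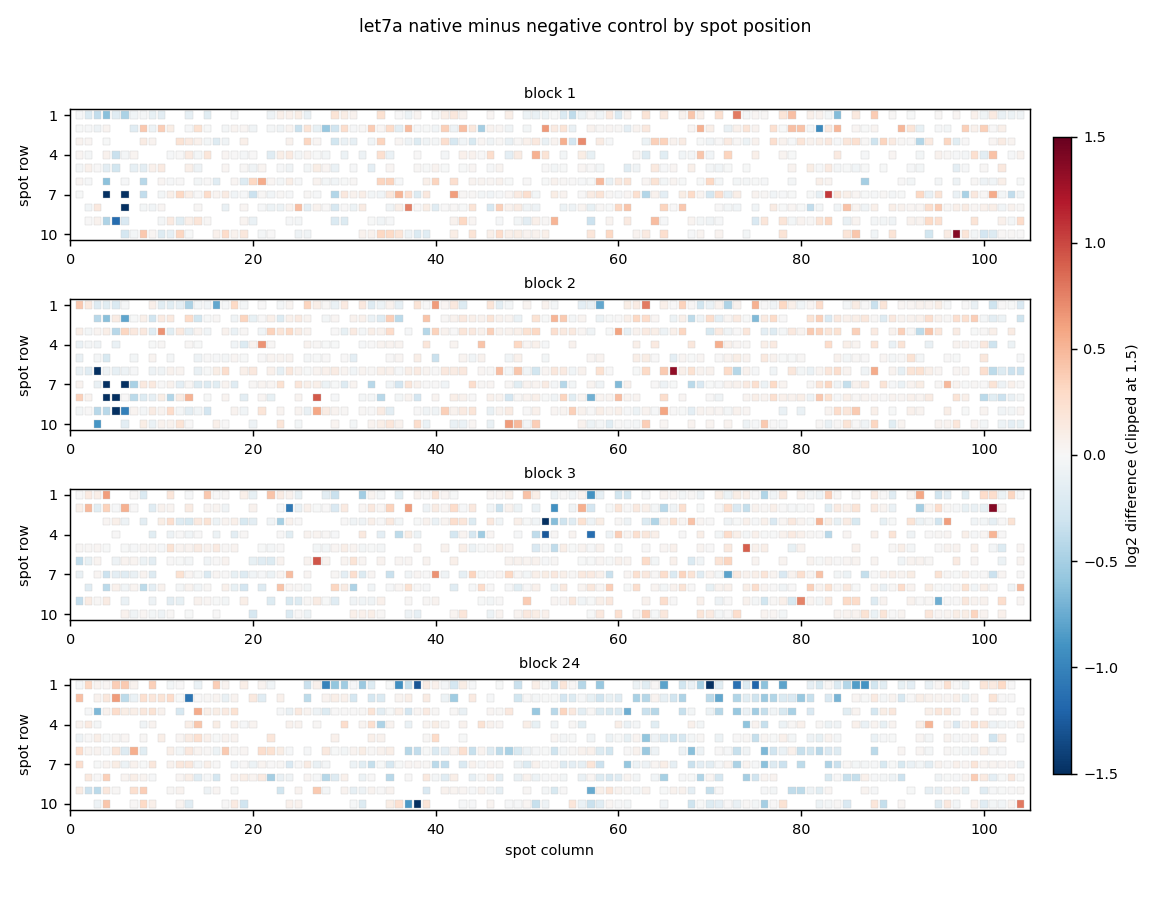
Difference between the let-7a native and the negative control array (log2, colour, clipped at 1.5) for each kept probe, drawn at its spot column and row in blocks 1, 2, 3 and 24. The low probes at columns 3 to 6 of blocks 1 and 2 form the patch with a median of -0.46, MTF2 and IPO9 are the adjacent dark spots at column 52 of block 3, and the upper right of block 24 is paler blue.

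A pair of methylated arrays did not match their labels in the target lists. The listed miR-17 targets had a median difference of -0.23 on the miR-17 native array and of -0.24 on the let7a methylated one, against 0.00 on miR-17 methylated. The listed let-7 targets had a median of -0.25 on let-7a native and of -0.27 on miR-17 methylated, against -0.05 on let7a methylated. CDC34 stood at -1.28 on let-7a native, at -1.27 on miR-17 methylated and at -0.06 on let7a methylated, going by those labels. The labels were kept, and neither array enters the let-7a difference beyond the normalisation, the detection filter and the choice of each gene's probe. Counts and mean levels over all arrays include them, and values from them are quoted under their labels.

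Few transcripts differed by 2-fold or more between let-7a native and the control. Of the 16072 features, 37 (0.23%) were lower by at least 2-fold and 13 (0.0809%) were higher by at least 2-fold. At 1.5-fold the counts were 177 (1.1%) lower and 150 (0.933%) higher, and the median of all differences was 0.00. By the same 2-fold limit, 109 features were lower on the miR-200c native array, 87 on the miR-17 native array and 9 on the miR-21 native array. The balance of lower to higher counts moved with the scaling: it was 53 to 10 with median scaling, 59 to 33 with an offset of 16, 117 to 96 with plain subtraction of the blank signal, and 94 to 112 in the authors' processed table. Without features in the patch or beside shifted spots, 24 lower features were left.

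Among the listed let-7 targets, most were below the control. All gene lists, these included, were chosen with earlier results of these data known, so their shares and medians are description only. The 4 lists named 69 genes reported as let-7 targets, of which 57 were measured, and 50 of the 57 read below the control, against 49.2% of all features. By at least 2-fold, 6 were lower (10.5% of those measured, against 0.23% of all features), and by at least 1.5-fold 14 were lower (24.6%, against 1.1%). The median difference of the 57 was -0.25, beside medians of -0.02, -0.09 and -0.06 for the same genes on the miR-200c, miR-21 and miR-17 native arrays. The let-7a native array held the lowest of the 5 native and control readings for 29 of the 57 (50.9%), against 22.5% of all features. None of the 57 lay in the patch or among spots whose neighbours' median was shifted by 0.25 or more. Counting only neighbours with a control level of at least 7, IRS2 (-0.37), IGDCC3 (-0.31) and TUT4 (0.30) had such a shift, and none of these was among the low members. Neither limit can tell whether a single spot was shifted, because genes of the low areas stayed under it. Over all neighbours MTF2 (-0.08) and IPO9 (-0.05) of block 3 did so. EIF2AK2 of the patch stayed under both limits, at -0.11 and -0.10. The 36 members with a control level of at least 7 had a median of -0.46, and the 21 dimmer members a median of -0.10.

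**Figure D2:**
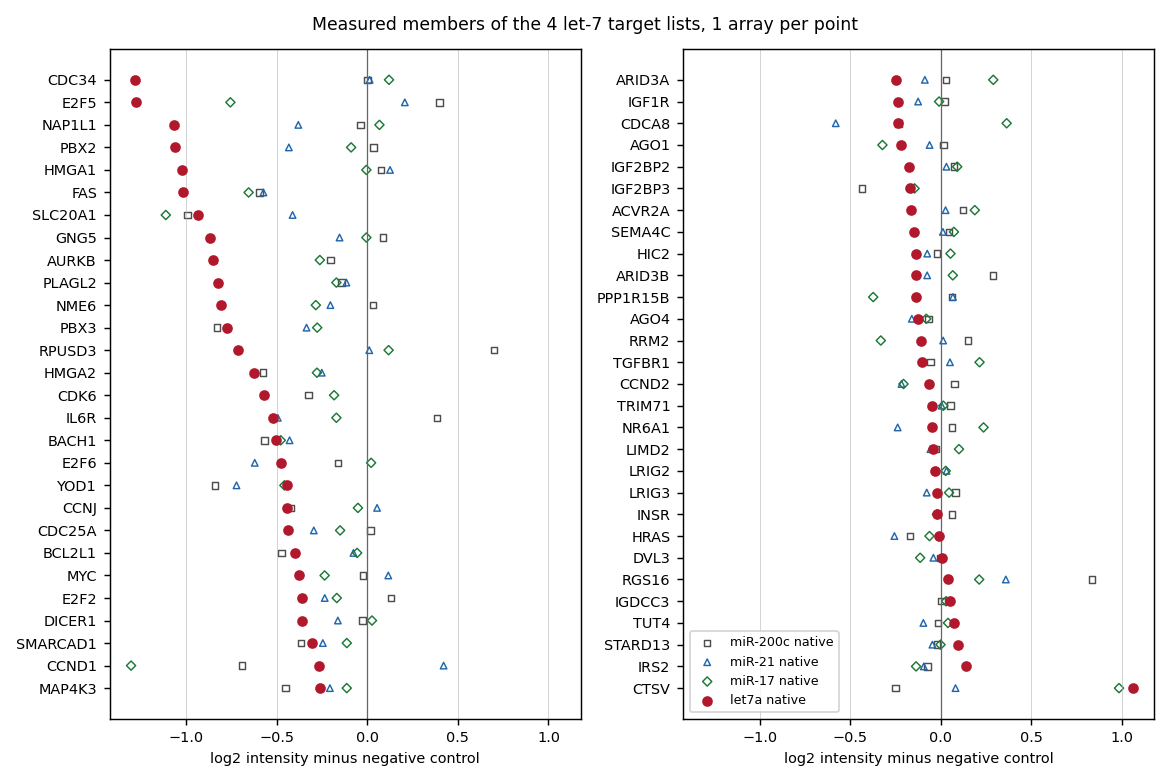
Difference from the negative control (log2) for the 57 measured members of the let-7 target lists, sorted by the let-7a native value (filled circles), with the 3 other native arrays as open symbols and 1 array behind each point. The 50 members left of 0 include CDC34, E2F5, NAP1L1, PBX2, HMGA1 and FAS below -1, and CTSV stands alone at 1.06.

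CDC34, the ubiquitin-conjugating enzyme that serves SCF ubiquitin ligases in cell cycle control, was one of the lowest let-7 targets. It read 10.94 in the control and 9.66 after let-7a native, a 2.44-fold lower level, and 10.94, 10.96 and 11.06 on the miR-200c, miR-21 and miR-17 native arrays. The let-7a native array was thus apart from 4 arrays that lay within 0.12 of one another. E2F5, an E2F transcription factor that works with the retinoblastoma-related pocket proteins, read 8.95 in the control and 7.67 after let-7a native. It read 9.35, 9.16 and 8.19 on the miR-200c, miR-21 and miR-17 native arrays, so that miR-17 native was also below the control.

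In the list of oncofetal and transcription regulators, all 18 measured members were below the control, with a median of -0.37 (18 of 22 listed genes were measured). HMGA1, an architectural chromatin protein of embryonic and tumour cells, read 12.18 in the control and 11.16 after let-7a native, and between 12.18 and 12.31 on the other native arrays. A second HMGA1 probe gave a difference of -0.99, close to the -1.02 of the first. HMGA2, its relative and a classical let-7 target, read 9.93 in the control and 9.30 after let-7a native. HMGA2 was also below the control with miR-200c native (-0.58), miR-21 native (-0.25) and miR-17 native (-0.28), so its -0.62 was not separate from the others.

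PBX2, a homeodomain cofactor of HOX proteins, differed by -1.06 after let-7a native, and its relative PBX3 by -0.78, with -0.43 at a second PBX3 probe. PBX2 stood at 0.04, -0.43 and -0.09 on the miR-200c, miR-21 and miR-17 native arrays, whereas PBX3 was lower still on miR-200c native (-0.83). PLAGL2, a zinc finger transcription factor, differed by -0.83, with -0.14, -0.12 and -0.17 on the other native arrays. MYC, the proliferation-linked transcription factor, read 10.75 in the control and 10.37 after let-7a native, against 10.72, 10.87 and 10.52 on the others. IGF2BP2 and IGF2BP3, oncofetal RNA-binding proteins, both differed by -0.17, and TRIM71, a ubiquitin ligase of early embryos, by -0.05 at a dim 6.07 in the control. LIN28B and IGF2BP1 did not pass the detection filter.

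In the list of cell cycle and growth genes, 18 of 21 measured members were below the control, with a median of -0.24. NAP1L1, a histone chaperone, read 10.55 in the control, 9.48 after let-7a native, and 10.51, 10.17 and 10.61 on the miR-200c, miR-21 and miR-17 native arrays. AURKB, the kinase of the chromosomal passenger complex, differed by -0.85 after let-7a native and by the same -0.85 after miR-21 native. CDK6, a kinase of the entry into the cell cycle, likewise differed by -0.57 after both. CDC25A, a phosphatase that activates cyclin-dependent kinases, differed by -0.44, and E2F2 by -0.36, and each was the lowest of its 5 native and control readings.

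CCND1, the cyclin partner of CDK6, had its lowest reading with another guide. It read 11.13 in the control, 10.86 after let-7a native and 9.83 after miR-17 native, and 10.44 and 11.55 after miR-200c and miR-21 native. The let-7a difference of -0.27 was therefore the smaller one, set beside -1.30 for miR-17 native. HRAS, a small GTPase of growth signalling, stood at 8.35 in the control and 8.34 after let-7a native.

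Of the remaining let-7 targets, FAS, the death receptor, read 9.33 in the control and 8.31 after let-7a native. It was below the control on every other native array too, at 8.74, 8.76 and 8.68. The difference of -1.02 exceeded theirs, with the let-7a native reading 0.36 below the nearest of them. SLC20A1, a phosphate transporter, differed by -0.94 and at a second probe by -1.31, with -0.99 and -1.11 at the first probe on the miR-200c and miR-17 native arrays. GNG5, a G protein gamma subunit, read 12.32 in the control and 11.45 after let-7a native, with 12.40, 12.16 and 12.31 on the others, which places it with CDC34 and HMGA1 as low on let-7a native and near the control on the other native arrays. RPUSD3, a mitochondrial pseudouridine synthase, differed by -0.72, against 0.70, 0.01 and 0.12.

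CTSV, a lysosomal cysteine protease, was the only listed target measured here that was above the control by 2-fold, among 7 above it at all. It read 7.48 in the control and 8.54 after let-7a native, and 7.23, 7.56 and 8.46 on the miR-200c, miR-21 and miR-17 native arrays. It was thus 2.09-fold above the control after let-7a native and close to the miR-17 native reading. Of the small RNA machinery among the let-7 targets, DICER1 differed by -0.36, AGO1 by -0.22, AGO4 by -0.13 and TUT4 by 0.07. AGO2, the slicing Argonaute and not on the let-7 lists, read 10.54 in the control and 9.73 after let-7a native, and was below the control on the other native arrays as well, by -0.49, -0.43 and -0.78.

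Let-7a native was at least 2-fold below the nearest of the other 4 native and control arrays for 5 features (0.0311%) and at least 2-fold above it for 0 features (0%). The 5 were CDC34 with a gap of 1.28, MTF2 with 1.22, IPO9 with 1.09, HMGA1 with 1.02 and COX7B with 1.01. The same count was 44 for miR-200c native, 20 for miR-17 native, 1 for miR-21 native and 1 for the control. MTF2, an accessory protein of the Polycomb complex PRC2, read 7.99 in the control and 6.49 after let-7a native, and 7.71, 7.77 and 8.08 on the others. IPO9, a nuclear import receptor, read 8.26 in the control and 6.99 after let-7a native, and 8.20, 8.07 and 8.38 on the others. MTF2 and IPO9 sit on adjacent spots, in rows 3 and 4 of column 52, inside the low area of block 3. Their neighbours with a control level of at least 7 had medians of -0.38 for MTF2 and -0.51 for IPO9. With the miR-17 methylated label, where CDC34 was at -1.27, HMGA1 was at -0.58, MTF2 at -0.45, COX7B at -0.20 and IPO9 at 0.04. COX7B, a subunit of cytochrome c oxidase, differed by -1.12, and its neighbours in block 24 had a median of -0.43. Of the 5, CDC34 and HMGA1 had brighter neighbours with medians nearer the control, at -0.13 and -0.04. CDC34 sits diagonally beside PLAGL2 (-0.83), the lowest of its 7 brighter neighbours, of which 5 were below the control. The lowest of the 10 brighter neighbours of HMGA1 was at -0.75, and 5 of the 10 were below the control.

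The 5 named genes with the largest gap above the other arrays were PCOLCE (0.82), CAVIN3 (0.79), ISG20 (0.68), EVC (0.64) and ELK4 (0.64). PCOLCE, an enhancer of procollagen processing, read 8.07 in the control and 9.02 after let-7a native, with 7.76, 8.20 and 7.86 on the others. CAVIN3, a caveolar coat protein, read 7.28 in the control and 8.23 after let-7a native, with 7.39, 7.30 and 7.44 on the others. ELK4, a partner of serum response factor, was dim, at 6.24 and 7.02. None of the 5 reached the 2-fold gap.

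A single model could be fitted, the let-7a native array against the control and the 3 other native arrays together (limma's moderated test, 3 residual degrees of freedom). The spread of the 4 arrays includes the effects of 3 other microRNAs, and the lone array is assumed to vary as they do. At an adjusted p under 0.05 limma called 0 of 16072 features, the smallest adjusted p was 0.417, and 745 features had an unadjusted p under 0.05 where 803.6 would be expected by chance. The lower genes first by moderated t were CDC34, MTF2, IPO9, HMGA1 and FKBP8, all at that adjusted p of 0.417, and the higher ones were ELK4, CPT1A, TRIO, CAVIN3 and ADTRP. FKBP8, an anchor protein of the outer mitochondrial membrane, read 6.67 in the control and 6.18 after let-7a native, and a second FKBP8 probe differed by -0.02. TRIO and ADTRP were dim, at 6.11 and 5.94 in the control, with differences of 0.36 and 0.24. CPT1A, the carnitine transferase of fatty acid uptake into mitochondria, was likewise dim at 6.19 and differed by 0.40, with brighter neighbours at 0.29.

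**Figure D3:**
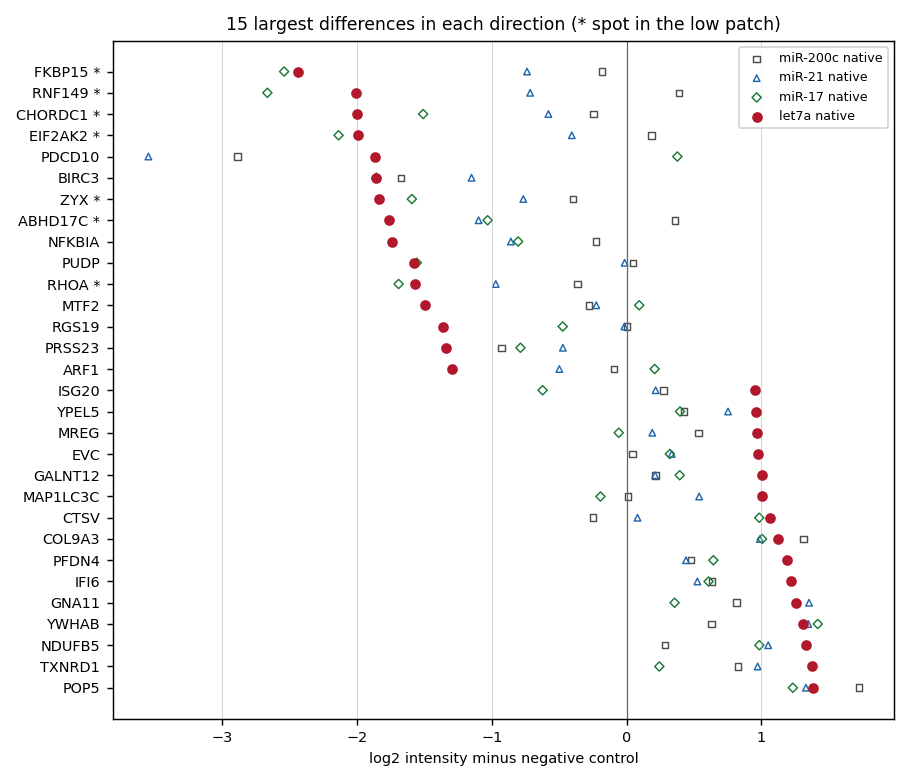
Difference from the negative control (log2) for the 15 named genes with the largest differences in each direction on the let-7a native array (filled circles) and on the 3 other native arrays (open symbols), 1 array per point. Genes with an asterisk lie in the low patch, where the miR-17 native symbols are low as well, and most genes on the right are above 0 with every guide.

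The 15 largest differences below the control among named genes were led by genes in the patch, which held 7 of the 15. FKBP15 read 9.58 in the control and 7.14 after let-7a native, and 9.40, 8.84 and 7.04 on the miR-200c, miR-21 and miR-17 native arrays. CHORDC1, an HSP90 co-chaperone, read 9.45 and 7.45, with 9.20, 8.87 and 7.94 on the others. EIF2AK2, the double-stranded RNA-dependent kinase PKR, read 8.50 and 6.50, with 8.68, 8.09 and 6.36. These genes were low on let-7a native and miR-17 native, the arrays with the lowest medians of the patch. FKBP15 (-1.52) and CHORDC1 (-0.56) were also below the control on miR-21 methylated, as was EIF2AK2. The medians of the patch include these genes, and its bounds were drawn after the differences were seen. The match between genes and patch therefore does not test the part played by position. RNF149, a ubiquitin ligase of the RING type, read 8.75 in the control and 6.74 after let-7a native in the patch, and differed by -0.06 at its second probe elsewhere on the array. INTS11, the cleaving subunit of the Integrator complex, differed by -1.15 in the patch and by -0.10 at its second probe. ZYX (-1.83), ABHD17C (-1.76) and RHOA (-1.57), which act in focal adhesions, depalmitoylation and the actin cytoskeleton, lay in the patch with no second probe. The brighter neighbours had medians of -1.70 for FKBP15, -0.75 for CHORDC1, -0.10 for EIF2AK2 and -1.30 for RNF149. For ZYX, ABHD17C and RHOA these medians were -1.03, -0.44 and -1.03.

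Outside the patch, the low genes were in part shared with other guides. PDCD10, a scaffold protein mutated in cerebral cavernous malformation, read 9.62 in the control and 7.76 after let-7a native, and it was lower still at 6.74 and 6.08 on the miR-200c and miR-21 native arrays. BIRC3, an inhibitor of apoptosis and an NF-kappaB target, read 9.79 in the control and 7.93, 8.12, 8.64 and 7.93 after let-7a, miR-200c, miR-21 and miR-17 native. BIRC3 was therefore below the control with all 4 guides. PUDP, a pseudouridine phosphatase, read 9.44 and 7.86, and 9.49, 9.43 and 7.88 on the others, which pairs let-7a with miR-17. RGS19, a regulator of G protein signalling, differed by -1.36, against 0.00, -0.02 and -0.47 on the others. PRSS23, a secreted serine protease, differed by -1.34, against -0.93, -0.47 and -0.79. ARF1, a GTPase of vesicle coating, read 12.76 and 11.46, and 12.66, 12.26 and 12.96 on the others, with neighbouring spots at -0.25. The let-7a reading lay 0.89 below the nearest other native or control array for RGS19 and 0.80 below it for ARF1.

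The 15 largest differences above the control among named genes ran from 0.95 to 1.38, and 11 reached 2-fold. For 10 of the 15 the control was the lowest of all 9 arrays. POP5, a subunit of RNase P and RNase MRP, read 8.74 in the control, 10.12 after let-7a native and 10.46, 10.07 and 9.97 on the miR-200c, miR-21 and miR-17 native arrays. YWHAB, a 14-3-3 protein, read 9.59 in the control, 10.89 after let-7a native and 10.22, 10.94 and 11.01 on the others. COL9A3, a collagen chain, read 9.09 in the control and 10.07 to 10.40 on the 4 native arrays. For these genes the distance was between the control and all other arrays, with let-7a native inside the range of the other guides.

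TXNRD1, the cytosolic thioredoxin reductase, read 10.18 in the control and 11.55 after let-7a native, above 11.01, 11.15 and 10.42 on the miR-200c, miR-21 and miR-17 native arrays. IFI6, an interferon-induced mitochondrial protein, read 7.29 and 8.51, above 7.93, 7.82 and 7.90. GALNT12, which starts mucin-type glycosylation, read 7.34 and 8.34, above 7.55, 7.55 and 7.73. In each of these the let-7a native array was the highest of the 5, by 0.40, 0.58 and 0.61, and the 3 brighter neighbours of IFI6 had a median of 0.33. MAP1LC3C, an autophagy protein, read 10.95 and 11.96, with 10.96, 11.49 and 10.75 on the others. ISG20, an interferon-induced exonuclease, read 9.46 and 10.42, with 9.74, 9.68 and 8.84, and its brighter neighbours had a median of 0.27. PFDN4 (1.19), NDUFB5 (1.33), EVC (0.97), MREG (0.96) and YPEL5 (0.96) completed the named genes, with GNA11 (1.26), whose neighbouring spots had a median of 0.37. Of 2 unnamed probes above 2-fold, the higher differed by 2.80 and was also above the control on the miR-21 and miR-17 native arrays, by 1.81 and 2.62.

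Genes of mitosis were slightly above the control. Of 38 measured members of the mitosis list, 32 were above the control, against 50.6% of all features, and the median difference was 0.24. The let-7a native array held the highest of the 5 readings for 21 of the 38 (55.3%), against 18.1% of all features. The median was 0.24 on the miR-17 native array as well, but -0.17 on the miR-200c native array and -0.24 on the miR-21 native array. SPC25, a kinetochore protein, read 8.70 in the control and 9.37 after let-7a native, and 8.78, 8.26 and 9.03 on the miR-200c, miR-21 and miR-17 native arrays. CENPE, the kinetochore motor, read 7.23 and 7.81, and 7.38, 7.29 and 7.53 on the others, and its second probe differed by 0.14, against the 0.58 of the first. At the probes shown, both were highest after let-7a native, by less than 0.5. NUSAP1 and KIF11, of the spindle, differed by 0.55 and 0.54 after let-7a native and by 0.54 and 0.48 after miR-17 native.

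Genes of S phase and DNA replication did not share this pattern. Of 41 measured members, 21 were below and 20 above the control after let-7a native, with a median of -0.01. The same list had a median of 0.31 on the miR-17 native array and -0.22 on the miR-21 native array. CDT1, the licensing factor of replication origins, read 7.66 in the control and 7.01 after let-7a native, and 7.81, 7.68 and 8.01 on the miR-200c, miR-21 and miR-17 native arrays. CDT1 lies beside MTF2 in the low area of block 3, and its brighter neighbours had a median of -0.30. RRM1, the large subunit of ribonucleotide reductase, differed by 0.56, and TYMS, thymidylate synthase, by 0.44. In the mitosis list, AURKB (-0.85, itself a listed let-7 target) and AURKA (-0.39) were the lowest members.

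**Figure D4:**
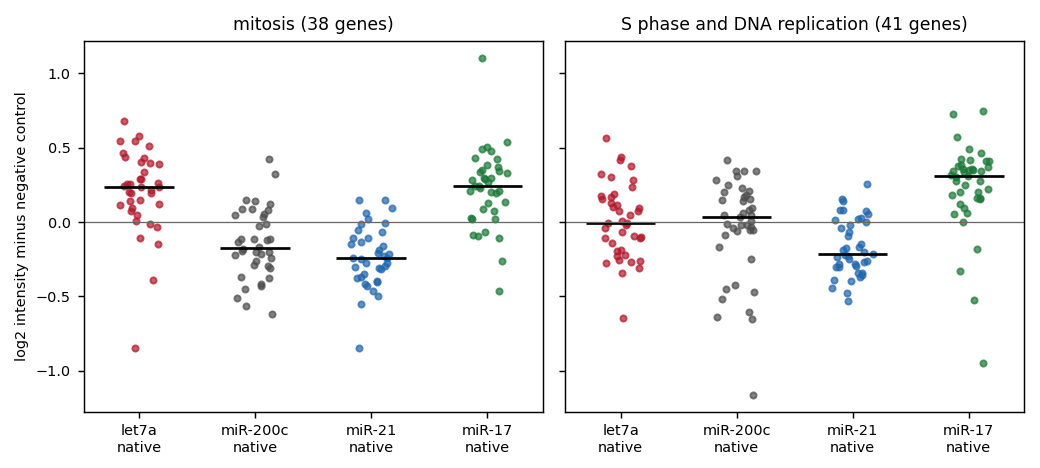
Difference from the negative control (log2) of each measured gene of the mitosis list (38 genes) and of the S phase and DNA replication list (41 genes) on the 4 native arrays, with a black bar at the median and 1 array behind each column of points. Mitosis medians were 0.24 for let-7a and miR-17 native, and S phase medians were -0.01 and 0.31.

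The lists of targets of the other 3 microRNAs had medians between -0.09 and 0.08 after let-7a native. The 25 measured miR-17 targets had a median of 0.03 after let-7a native and -0.23 after miR-17 native, and the 22 measured miR-200c targets a median of 0.08 after let-7a native and -0.20 after miR-200c native. CDKN1A, the p21 inhibitor and a miR-17 target, read 11.41 in the control, 11.07 after let-7a native and 9.47 after miR-17 native. The miR-21 targets had a median of -0.09 after let-7a native and -0.13 after miR-21 native, and 14 of 20 were below the control on each. For 9 of the 20 (45%) let-7a native gave the lowest of the 5 readings, against 22.5% of all features. YOD1 (-0.45) and CDC25A (-0.44), among the lowest of them, are also on the let-7 lists. ERRFI1, a feedback inhibitor of the EGF receptor on the miR-200c list, was lower after let-7a native by 2-fold or more, at 8.27 in the control and 7.05, against 8.39, 7.57 and 7.37 on the miR-200c, miR-21 and miR-17 native arrays. MSN and PPM1F, on the same list, were above the control, both by 0.62, and MSN was at -1.21 after miR-200c native. A second MSN probe differed by 0.02 after let-7a native.

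The NF-kappaB list was below the control after every guide. Of 16 measured members, 12 were below it after let-7a native, against 49.2% of all features, with a median of -0.18, beside -0.17, -0.16 and -0.27 on the miR-200c, miR-21 and miR-17 native arrays. NFKBIA, the inhibitor that NF-kappaB itself induces, read 10.58 in the control and 8.84 after let-7a native, and 10.36, 9.73 and 9.78 on the others, but its spot lies in the depressed region of block 24, with neighbours at -0.28. ICAM1, an adhesion molecule, differed by -0.42, and NFKB1 by 0.45. BIRC3 and NFKBIA, the pair beyond 2-fold, were both below the control on all 4 native arrays.

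Other lists had medians closer to that of all features. The interferon list had a median of 0.06, with IFI6 the one member beyond 2-fold and RIGI, a sensor of double-stranded RNA, at -0.06. The p53 targets had a median of 0.07, with DDB2, a DNA damage sensor, at 0.90 and FAS at -1.02. The hypoxia and glycolysis list had a median of 0.10, with the mitophagy receptor BNIP3L highest at 0.66 and its second probe at -0.01. Among epithelial markers EPCAM read 7.38 in the control and 8.19 after let-7a native, and 7.73, 7.73 and 7.44 on the miR-200c, miR-21 and miR-17 native arrays, while the list's median was 0.02. In the histone list, H2BC12 alone was beyond 2-fold, at -1.06, against -0.26, -0.05 and -0.63 on the others. ID1 and ID3, targets of BMP and TGF-beta signals, differed by -0.65 and -0.75 after let-7a native and by -1.21 and -1.57 after miR-17 native. The 61 measured cytosolic ribosomal protein genes had a median of 0.00.

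**Figure D5:**
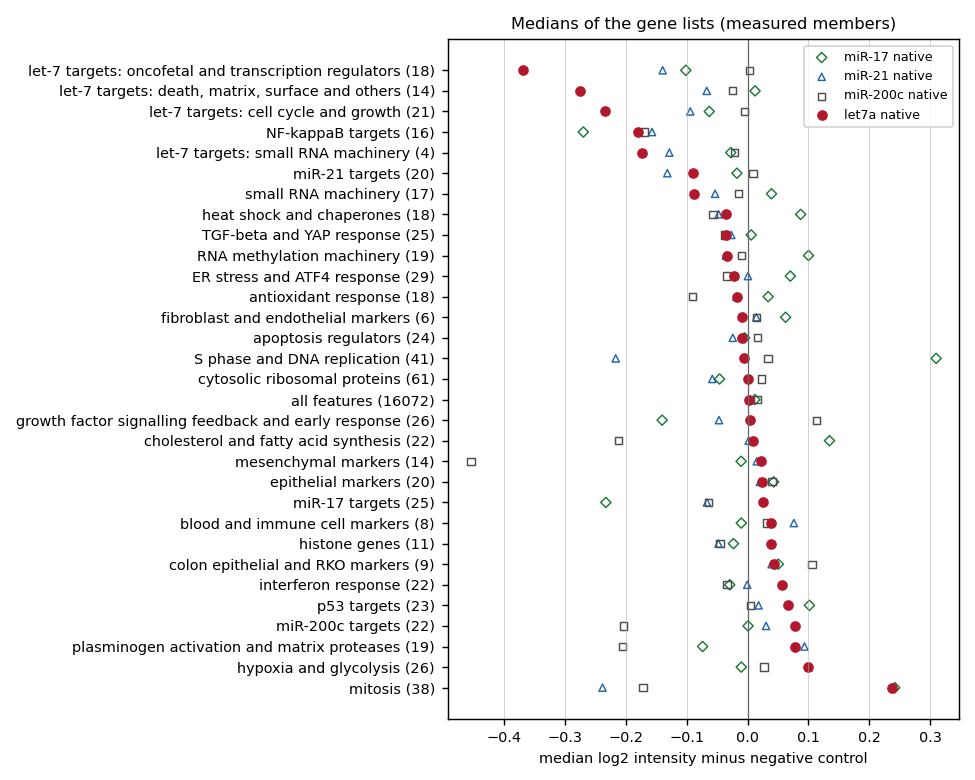
Median difference from the negative control (log2) of each gene list on the 4 native arrays, sorted by the let-7a native value (filled circles), with the number of measured members in parentheses. The let-7 lists lie at -0.37 to -0.17 for let-7a native, with the NF-kappaB list among them at -0.18, and mitosis is at the right, at 0.24 for let-7a and miR-17 native.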

How the data were processed

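Toray 3D-Gene arrays were scanned in 1 colour (Cy5, 635 nm), and the deposited files give the authors' median spot intensity per probe. Steps before that intensity, and the making of the processed table, are not given in the sources used here. Blank spots (2680 of 27456) set the detection limit and the plain subtraction used as an alternative. Intensities were corrected by normexp with an offset of 50, which estimated the background from all spot intensities of each array. They were then taken to log2 and quantile-normalised over 9 arrays with limma 3.58.1 in R 4.3.3. Probes above the blank mean plus 2 SD on at least 5 arrays were kept (17684 of 24451), and a gene was read from its brightest probe by mean level. Of the probes, 20230 had 1 gene symbol and 4221 none or several; symbols were updated through RefSeq, and 99 kept an old one. Blank means were 31.4 to 46.8, and the median detected intensity was 98.2 to 142; 1 array per group limits the precision, and any p-value measures only the spread between these arrays.

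Named genes were the 15 largest differences in each direction among named genes detected on both arrays, the first 5 each way by limma's moderated t and by gap, the lowest members and the highest of each let-7 list with a fixed set of known let-7 targets, and the 3 lowest and 2 highest of the other lists. The text also names PBX3, NUSAP1, KIF11, INTS11, HRAS, CD3D and CD3E, which were chosen after their values were seen. Members and lists were chosen with earlier results of these data known. The limma fit, with Benjamini-Hochberg adjustment, was tested on simulated data with 16072 genes, where it called 52% of changes of 1 and 94% of changes of 2 on the log2 scale, with 10 false calls. In the simulation 100 genes were changed by each size, and noise was drawn independently per gene from its SD over the 4 reference arrays. No shifts by position were simulated, so these rates need not hold for the real fit. Alternatives were other background corrections, normalisations, filters, probe rules and reference arrays, and the authors' processed table. Without transcript sequences, seed matches were not analysed here.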

Additional observations from a re-analysis of the deposited data

How the results depend on the processing

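Over 11 alternatives, 1757 of 1967 values for the 180 named genes stayed close to those reported and 210 moved by more. None of the named genes past 2-fold changed sign. Both results include settings that mainly change which features are kept, where a gene's value could hardly move. With no filter 180 values stayed, and with detection required on both arrays 178 did. Plain blank subtraction moved 58 of the 180 genes, and the authors' processed values moved 57, the most of any setting. Counts of features moved as well. From 37 lower and 13 higher features, plain blank subtraction gave 117 and 96, an offset of 16 gave 59 and 33, and the authors' processed table gave 94 and 112. Higher features numbered 20 with no background correction. A 1.5-fold limit gave 177 and 150. Leaving out features in the patch or beside shifted spots left 24 lower ones. This and the level limits were chosen after seeing the data: at a mean level of at least 7, plain subtraction gave 61 and 37, and the processed table gave 54 lower and 42 higher, the reverse of its balance without that limit. Features lowest by 2-fold went from 5 to 22, 10, 15 and 3 with plain subtraction, an offset of 16, the processed table and subtraction of the neighbours' median; those highest by 2-fold went from 0 to 7 with plain subtraction and 9 in the processed table. The limma counts of 0 became 1 lower and 1 higher with the miR-200c and miR-21 methylated arrays added to the reference, and 18 higher without the filter; leaving out each reference array gave 0 to 0. The let-7 target median of -0.25 became -0.30 with median scaling, -0.53 with plain subtraction, -0.35 with an offset of 16, -0.29 with no background correction, -0.46 in the processed table and -0.17 without the filter. Why these values moved was not tested. No paired analysis was possible because each group holds 1 array. Dim probes, close to the blank signal, limit what these arrays can show.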
